A study of Arabidopsis thaliana with 41 samples.

Results

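The 289 transcripts described here were assembled from the RNA of developing Arabidopsis thaliana embryos and lie outside every reference gene. They are all the entries to which the assembly gave class code u, the code for a transcript in unknown, intergenic sequence, among 53988 assembled transcripts. The code was the only criterion, and no measured level entered the choice. Each transcript is described apart, under the name given in the deposited table (UnknownGene_1 onwards), and the 289 transcripts fall into 261 loci, 22 of which hold several overlapping forms. Embryos of the wild type and of val1 were collected at 7, 8, 10, 12, 13, 15 and 17 days of age. The val1 line is mutated in VAL1 (AT2G30470), and the labels used here name no allele or treatment. There were 3 libraries for each genotype at each age, but 2 for wild type at day 17, so that 14 groups held 41 libraries. The design text speaks of 3 biological replicates, but the labels do not tie libraries to plants, and p-values measure only the spread between these libraries.

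VAL1 is a B3-domain protein that represses genes of the seed maturation programme, and it does so in part by recruiting histone-modifying complexes to chromatin. Transcription outside annotated genes is common in plants. It yields long noncoding RNAs, transcripts of transposable elements, extensions of neighbouring genes, and protein-coding genes that an annotation has missed. An assembled intergenic transcript can be any of these, and the class code does not tell them apart.

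The levels of VAL1 itself followed the labels. Its summed FPKM (fragments per length of transcript and per sequenced fragment, scaled between libraries) was 5.35 to 21.0 in the wild-type libraries and 0.754 to 7.12 in those of val1, and the genotypes did not overlap at any age. Estimated depth was 8321306 to 51738641 reads per library, median 29731894. Of 6 embryo genes, FUS3, ABI3, CRU3 and STM were above 0 in all 41 libraries, LEC1 was at 0 in 15 and WOX2 at 0 in 11. Of the markers of surrounding tissues, the endosperm gene MINI3 was at 0 in all 41 libraries and PHE1 in 38, while the late endosperm gene EPR1 ranged from 0.327 to 220.1 scaled FPKM. The summed level of 8 seed coat markers was higher in val1 than in wild type at day 13 (9.27 to 13.3 against 3.78 to 7.14), day 15 (2.42 to 4.16 against 1.53 to 2.24) and day 17 (1.70 to 2.72 against 0.846 to 1.14), and by less at day 10 (14.2 to 15.96 against 12.1 to 13.4). The summed level of 9 endosperm markers was lower in val1 at day 10 (14.96 to 19.0 against 19.5 to 30.7), day 12 (35.7 to 72.7 against 73.8 to 168.0), day 13 (29.5 to 58.0 against 83.0 to 117.5) and day 15 (50.5 to 66.6 against 78.97 to 220.3). At the other ages the genotypes overlapped in these sums. Each sum leans on 1 gene. EPR1 had a median of 34.2 scaled FPKM over the libraries, and no other endosperm marker had a median above 0.185. MUM4 had a median of 6.27, and no other seed coat marker had one above 0.57. The genotype difference of each marker is not given apart. The part of other tissues in the results below was not tested. In whole embryos, fewer cells that express a transcript and less RNA per cell cannot be told apart.

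The intergenic transcripts were short and rare. Their length ran from 202 to 2843 bases with a median of 472, against 1507 for transcripts of the reference class and 644 for the 350 antisense transcripts. Their mean FPKM over all libraries ran from 0.00537 to 29.0 with a median of 0.408, against 0.729 for the reference class and 0.958 for antisense transcripts. Only 70 of them reached a mean of 1 FPKM, 25 reached 5 and 10 reached 10. At the other end, 50 stayed under 1 FPKM in every library. Detection varied likewise: 46 were above 0 in all 41 libraries and 33 were above 0 in 10 libraries or fewer.

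Together they took 0.0158 to 0.0476% of the reads of a library. In wild type the share was 0.0384% ± 0.0040 (SD, n = 3) at day 7, 0.0317% ± 0.014 (n = 3) at day 12 and 0.0241% ± 0.0059 (n = 2) at day 17. In val1 it was 0.0411% ± 0.0043, 0.0339% ± 0.0061 and 0.0192% ± 0.0026 (n = 3 each) at the same ages. The libraries of the genotypes overlapped at every age except day 13, when the 3 val1 libraries held 0.0340 to 0.0431% and the wild-type libraries 0.0214 to 0.0295%. The 10 most abundant transcripts took 39.6% of these reads. No test was made on the share.

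**Figure D1:**
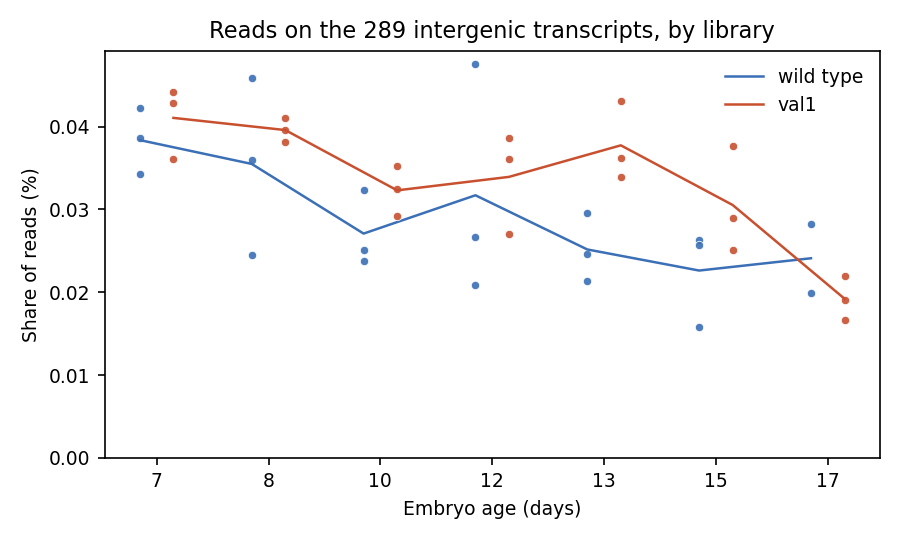
Share of reads on the 289 intergenic transcripts (y axis, percent) by embryo age in days (x axis), with 1 point per library, and lines through the group means, for wild type (blue) and val1 (orange). All libraries sit between 0.0158 and 0.0476%, and the genotypes are apart only at day 13.

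The deposited table gives no coordinates, but its locus numbers run through the genome by chromosome and strand. For neighbouring reference loci, 99.94% of the numbers were in genome order when placed with the RefSeq annotation of assembly TAIR10.1. By that order 172 of the intergenic transcripts lie on a known strand (89 plus, 83 minus) between named reference genes, and 117 lie in stretches of the numbering that carry no strand. Chromosomes 1 to 5 hold 80, 48, 47, 48 and 39, and 27 belong to a last stretch with no chromosome. Those on a strand were longer (median 576.5 bases against 354) and more abundant (median 0.622 FPKM against 0.213). For 110 of the 172, or 64.0%, RefSeq annotates at least 1 locus on that strand between the flanking genes that the deposited table does not list. The same holds for 13.0% of all neighbouring reference pairs. Positions are therefore given here as the flanking genes alone, with before and after in the order of the numbers, and no transcript is equated with a locus of the later annotation.

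For the tests, a transcript needed at least 1 FPKM in at least 2 libraries. This kept 193 of the 289 (170 loci) and 31161 transcripts in all, and the other 96 were not tested. A transcript could pass through the libraries of 1 group alone, where it was high, and the p-values take no account of that. Differences are on the scale of log2(scaled FPKM + 0.5), which understates changes of rare transcripts, and a transcript was called at a Benjamini-Hochberg adjusted p under 0.05 over all 31161 in limma. Averaged over the 7 ages, 44 of the 193 (22.8%) were higher in val1 and 31 (16.1%) were lower. Over all transcripts tested the shares were 14.6% higher and 11.2% lower. The median difference of the 193 was 0.05 on the log2 scale, against 0.01 for all transcripts. Most differences were small: only 4 of the 75 called transcripts reached a log2 difference of 1, 3 of them higher in val1 and 1 lower. Over all transcripts tested, 413 of the 8010 called reached it. Called transcripts made up 33.3% of the 123 with a mean under 1 FPKM and 52.0% of the 25 with a mean of 5 or more. Shares by abundance were not taken over all transcripts. Among the 310 antisense transcripts tested, 75 (24.2%) were called, against 38.9% of the intergenic ones; the difference between these classes was not tested. The count for intergenic transcripts was 46 of 102 with a minimum of 2 FPKM in 3 libraries, and 29 of 221 in the authors' second quantification. The shares over all transcripts in these settings are not given here.

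**Figure D2:**
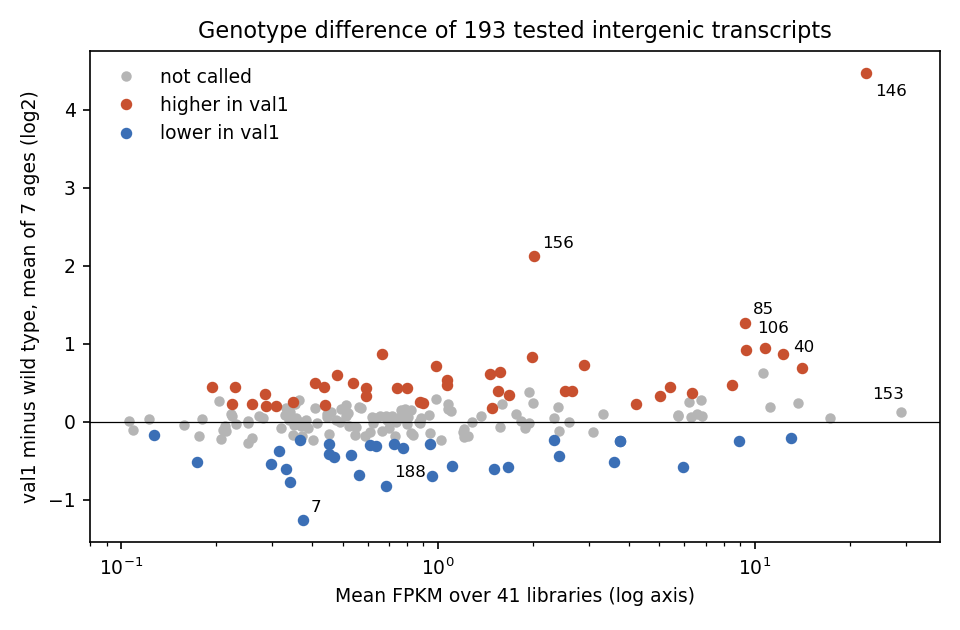
Difference of val1 minus wild type averaged over 7 ages (y axis, log2) against mean FPKM over 41 libraries (x axis, log scale) for the 193 tested intergenic transcripts, 1 point each. Orange points are the 44 called higher in val1, blue the 31 called lower, grey the rest, and the numbers are those of the UnknownGene names. UnknownGene_146, at 4.47, and UnknownGene_156, at 2.12, stand above all others.

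UnknownGene_146 (TCONS_00030096, 424 bases) had the largest genotype difference. It lies on the minus strand of chromosome 3 between PCC1 (AT3G22231), a gene known for its response to pathogens and the circadian clock, and AT3G22235. In wild type it was listed at 0 in all 3 libraries of day 7 and both of day 17, and held 0.708, 0 and 0.568 scaled FPKM at day 12. In val1 it held 32.96, 45.3 and 27.4 at day 10, 64.8, 78.4 and 81.7 at day 12, and 157.6, 100.8 and 128.9 at day 15. The genotypes overlapped at day 7 and at no later age. The wild-type libraries of day 15 were uneven, with 13.1, 1.17 and 14.8, and remained below every val1 library of that day. The average difference was 4.47 ± 0.21 (SE, log2; adjusted p = 5.91e-18, limma). It was called at 6 of the 7 ages, all but day 7, and its size differed between ages (interaction adjusted p = 1.77e-06).

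Both flanking genes of UnknownGene_146 were also higher in val1 on average, by less. The most abundant PCC1 transcript was higher by 0.67 ± 0.19 (adjusted p = 0.00822, limma) and that of AT3G22235 by 0.62 ± 0.17 (adjusted p = 0.00665, limma). In wild type, where UnknownGene_146 stayed under 1 scaled FPKM at day 12, PCC1 held 8.84 to 21.8 and AT3G22235 48.3 to 79.9. Over the 14 group means, UnknownGene_146 correlated with PCC1 at r = 0.47 (Spearman 0.53) and with AT3G22235 at r = 0.49 (Spearman 0.59), as a description over points that share libraries.

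UnknownGene_156 (TCONS_00032803, 1012 bases) lies on the minus strand of chromosome 3 between AT3G58410 and AT3G58420. It was called higher in val1 at all 7 ages, by 0.69 at day 8 to 3.14 at day 15 on the log2 scale. Wild-type libraries held 1.61, 1.16 and 1.66 scaled FPKM at day 8, then 0, 0.132 and 0 at day 12 and 0 in both libraries of day 17. The val1 libraries held 2.07, 2.86 and 3.14 at day 8, 4.28, 3.75 and 3.77 at day 12, and 1.79, 1.66 and 1.38 at day 17. No wild-type library reached a val1 library of the same age. The average difference was 2.12 ± 0.07 (adjusted p = 9.89e-23, limma), and its size differed between ages (interaction adjusted p = 8.40e-10).

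The flanking genes of UnknownGene_156 differed from each other. The main transcript of AT3G58410 was higher in val1 by 0.80 ± 0.06 and that of AT3G58420 was lower by a log2 difference of -0.31 ± 0.05 (adjusted p = 2.31e-13 and 2.22e-05, limma). At day 10 AT3G58410 held 0.0366 to 0.0855 scaled FPKM in wild type and 3.50 to 4.34 in val1. By day 15 it had a median of 0.0520 in val1, while UnknownGene_156 held 3.98, 4.03 and 5.83 in the same libraries. At that age the intergenic transcript was high in val1 and the gene listed before it was near 0.

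UnknownGene_85 (TCONS_00014444, 515 bases) lies on the plus strand of chromosome 2 between AT2G05670 and AT2G05680, which were at or near 0 in these embryos. Its wild-type libraries ran from 1.33 to 8.65 scaled FPKM and its val1 libraries from 3.53 to 19.0. At day 15 wild type held 1.70, 1.41 and 2.66 and val1 held 8.44, 5.50 and 13.3, without overlap. The average difference was 1.27 ± 0.11 (adjusted p = 7.99e-11, limma), and it was called at 5 ages. The interaction with age was not called (adjusted p = 0.503), so a constant ratio was not told apart from a changing one.

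UnknownGene_40 (TCONS_00013379, 656 bases) was among the 10 most abundant intergenic transcripts, with a mean of 12.3 FPKM. It lies on the minus strand of chromosome 1 between AT1G75891 and AT1G75970, both at 0 in all libraries, in a span whose opposite strand carries SKP1, a subunit of ubiquitin ligases. At day 13 it held 9.23, 12.4 and 11.2 scaled FPKM in wild type and 33.5, 30.1 and 26.4 in val1. At day 17 the genotypes overlapped, and all 3 val1 libraries lay between those of wild type, at 8.35 and 14.2. The average difference was 0.87 ± 0.10 (adjusted p = 3.69e-08, limma), while the main SKP1 transcript differed by -0.05 ± 0.07 (adjusted p = 0.663, limma).

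A further 4 transcripts completed the group of 10 with the largest rise, at average differences of 0.72 to 0.87. UnknownGene_88 (265 bases, chromosome 2) was highest in val1 at day 7, at 2.17, 3.00 and 1.77 scaled FPKM against 0.458, 0.153 and 0.0294 in wild type. These val1 libraries reached the filter of 1 FPKM, while its highest wild-type library held 1.06 scaled FPKM. Its p-values take no account of that. UnknownGene_250, the longest of the named transcripts at 2772 bases, lies on chromosome 5 between SOS3, a calcium sensor of salt tolerance, and GMI1. It was higher in val1 by 0.72 ± 0.07 (adjusted p = 1.70e-09, limma), while the main SOS3 transcript was lower, at -0.42 ± 0.10 (adjusted p = 0.00109, limma). UnknownGene_195, on chromosome 4 next to NSF, an ATPase of membrane fusion, was called at 5 ages and rose with age in both genotypes. In the second quantification the average calls of UnknownGene_195 (0.52, adjusted p = 0.413, limma) and UnknownGene_88 (0.50, adjusted p = 0.0997, limma) were lost. UnknownGene_268, in the last stretch of the numbering, held 0.823, 0.935 and 1.26 in wild type and 4.13, 2.24 and 1.85 in val1 at day 12. The remaining pair, UnknownGene_106 and UnknownGene_107, is described with the changes over age.

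**Figure D3:**
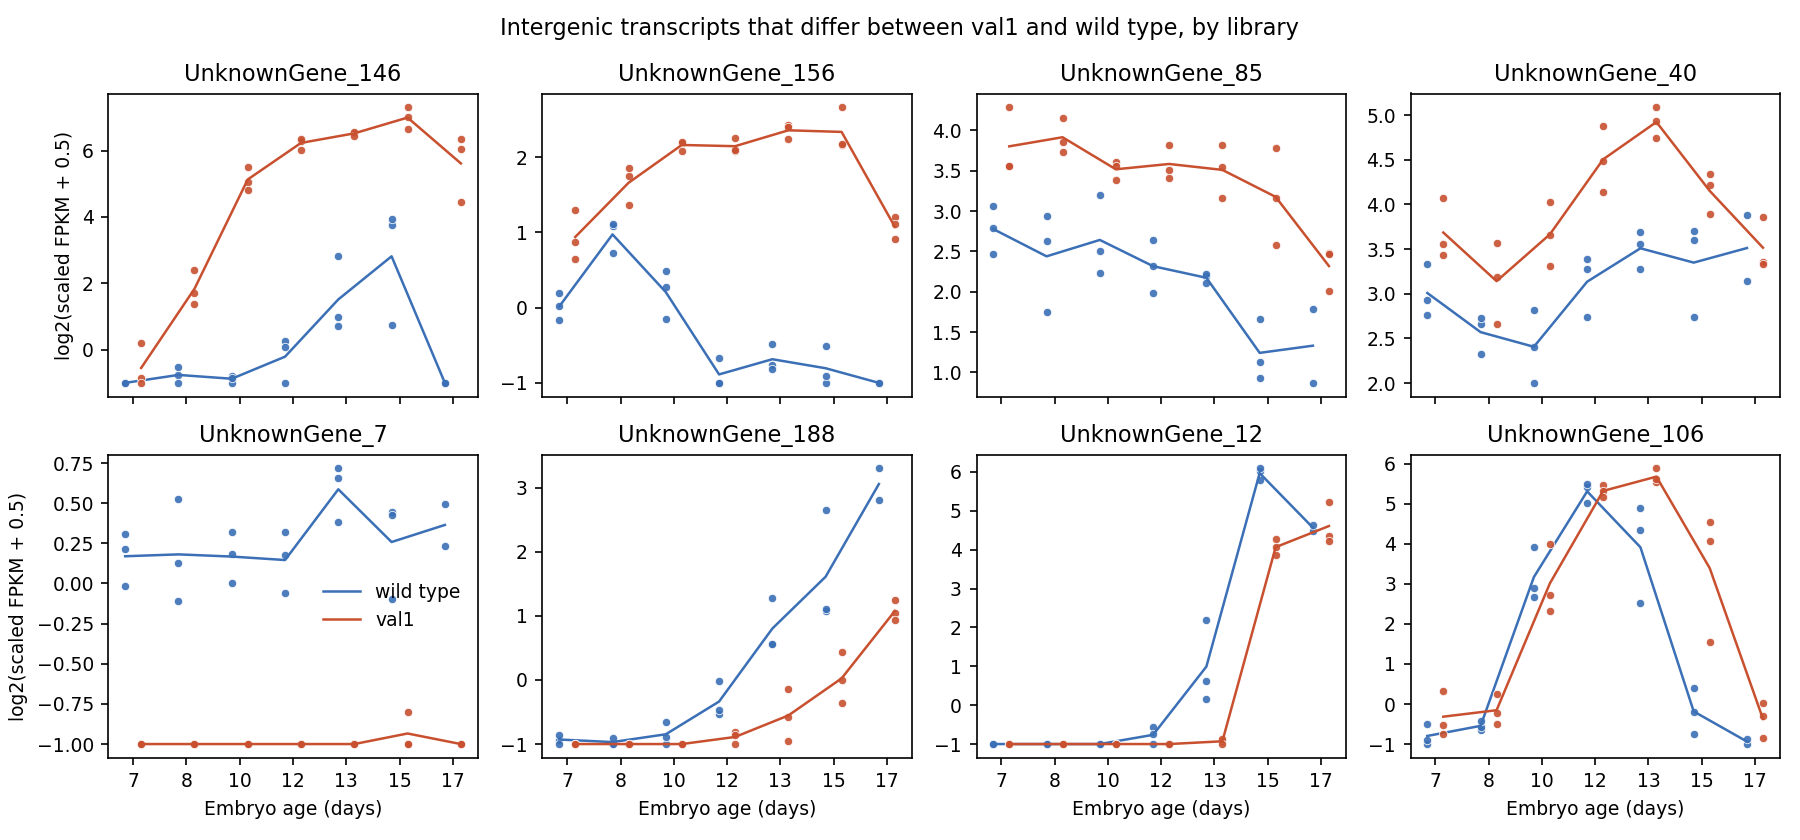
Levels of 8 intergenic transcripts (y axes, log2(scaled FPKM + 0.5), so that -1 is a value of 0) by embryo age in days (x axes), with 1 point per library and lines through the group means, for wild type (blue) and val1 (orange). The upper row shows transcripts higher in val1. UnknownGene_7 stays near -1 in val1 at every age, and the genotypes part at days 13 and 15 for UnknownGene_12 and UnknownGene_106.

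UnknownGene_7 (TCONS_00003477, 821 bases) had the largest fall in val1, and its libraries did not overlap between genotypes over all ages together. The 20 wild-type libraries held 0.427 to 1.14 scaled FPKM. In val1 it was listed at 0 in 20 of 21 libraries and held 0.0732 in the other, replicate 2 of day 15. It passed the filter of 1 FPKM through wild-type libraries alone, and its p-values take no account of that. It was called at all 7 ages, and the average difference was -1.26 ± 0.05 (adjusted p = 3.02e-19, limma), a size set by the added 0.5 because val1 was near 0. The interaction with age was not called (adjusted p = 0.549), and in wild type neither interval of development was called (day 12 minus day 7 was -0.02 ± 0.14 and day 17 minus day 12 was 0.22 ± 0.15; adjusted p = 0.890 and 0.208, limma).

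By its number, UnknownGene_7 lies on the plus strand of chromosome 1 between AT1G36050 and AT1G36080. The annotation places AT1G36060 and AT1G36070 on the opposite strand of that span, and these were looked up after the values had been seen. The main transcript of AT1G36070 was lower in val1 by a log2 difference of -1.63 ± 0.07 and that of AT1G36060 was higher by 0.86 ± 0.06 (adjusted p = 2.72e-19 and 8.82e-13, limma). AT1G36050, before it on the same strand, was higher by 0.30 ± 0.05 (adjusted p = 1.20e-05, limma). AT1G36070 held 3.36 to 5.54 scaled FPKM in wild type and 1.14 to 1.44 in val1 at day 7, and it did not overlap between genotypes at any age. Whether counting used strand is not given in the sources used here, so reads of overlapping transcripts on opposite strands cannot be told apart.

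Of the 4 forms of one locus on chromosome 4, UnknownGene_188, UnknownGene_189 and UnknownGene_191 (667, 736 and 623 bases) were lower in val1, and the last form was too rare to be tested. They share a locus and so are not independent. They lie on the plus strand between MRH1, a receptor-like kinase, and AT4G18660. UnknownGene_188 (TCONS_00035337) held 6.54 and 9.35 scaled FPKM in wild type at day 17 and 1.56, 1.89 and 1.41 in val1. At day 7 both genotypes were at 0.0525 or less. At day 15 replicate 2 of wild type stood apart, at 5.76 against 1.61 and 1.66, and all 3 were above the val1 libraries (0.279 to 0.851). Average differences were -0.82 ± 0.10, -0.68 ± 0.09 and -0.61 ± 0.08 (adjusted p = 7.03e-08, 3.69e-07 and 5.09e-07, limma). The interaction with age was called for all 3 (adjusted p = 0.000373, 0.000385 and 0.000112, limma), but for none with limma-voom on recovered reads (adjusted p = 0.0867 to 0.786). UnknownGene_191 passed the filter only with the libraries of day 17 included, the age of its largest difference (-1.72). Its p-values take no account of that.

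The genes of that span were lower in val1 as well. The main transcript of AT4G18660 differed by -0.44 ± 0.06 and that of AT4G18650, on the opposite strand, by -0.49 ± 0.06 (adjusted p = 9.35e-07 and 6.42e-08, limma). At day 17, however, AT4G18660 held 7.72 and 7.91 in wild type and 8.04 to 8.63 in val1. On the scale used here, UnknownGene_188 differed most at that age, by a log2 difference of -1.98. In the authors' deposited comparison, on another scale, its difference was -2.42, -2.95 and -2.37 at days 12, 13 and 15 and -2.24 at day 17. UnknownGene_199 (TCONS_00039454, 1539 bases), which follows AT4G18650 on the minus strand, was lower on average too, at -0.44 ± 0.09 (adjusted p = 0.000214, limma). It held 19.8 and 23.8 in wild type and 11.4, 16.4 and 13.9 in val1 at day 17, where its own difference was not called.

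Of the other transcripts with the largest falls, UnknownGene_92 (647 bases, chromosome 2, before cPT1) was at 0 in 8 of the 21 val1 libraries and never above 0.440 scaled FPKM in val1, against 0.117 to 1.07 in wild type. Its average difference was -0.78 ± 0.10 (adjusted p = 1.16e-07, limma), and it too passed the filter through wild-type libraries alone. UnknownGene_194 (885 bases, chromosome 4) held 2.74 and 2.24 in wild type and 0.635, 0.547 and 0.338 in val1 at day 17, and its average difference was -0.69 ± 0.08. UnknownGene_151, UnknownGene_265, UnknownGene_12 and UnknownGene_196 had average differences between -0.56 and -0.60. That of UnknownGene_265 was not called in the numbered libraries alone (-0.37, adjusted p = 0.118, limma), which are 34 of the 41.

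The genotype difference was called more often at later ages. Of the 193 tested, 5 were called at day 7 (2.59%), 11 at day 8 (5.70%), 13 at day 10 (6.74%) and 15 at day 12 (7.77%). The numbers were 34 at day 13 (17.6%), 40 at day 15 (20.7%) and 34 at day 17 (17.6%). Over all transcripts tested the shares from day 7 to day 17 were 2.27%, 2.50%, 3.90%, 6.39%, 14.6%, 13.3% and 11.8%, and these too were higher from day 13 on than before. Of the 34 calls of day 17, 23 were higher in val1 and 11 lower, and without scaling between libraries, where the median of all transcripts was -0.23, the split turned to 12 higher and 20 lower. Without the filter, over all 289, it was 22 higher and 27 lower at day 17 and 22 and 33 at day 15, against 22 and 18 with it. In the second quantification the counts from day 7 to day 17 were 2, 4, 6, 8, 15, 24 and 11. Without replicate 1 of wild type at day 17, the calls of that day fell to 17. Without replicate 3 of wild type at day 8 those of day 8 fell to 7. Leaving out replicate 2 of either genotype at day 10 took the calls of that day to between 7 and 8. At 1 age or more, 82 of 193 were called (42.5%), against 31.5% of all transcripts. At every age, 2 of the 193 were called (1.04%), against 0.35% of all transcripts.

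**Figure D4:**
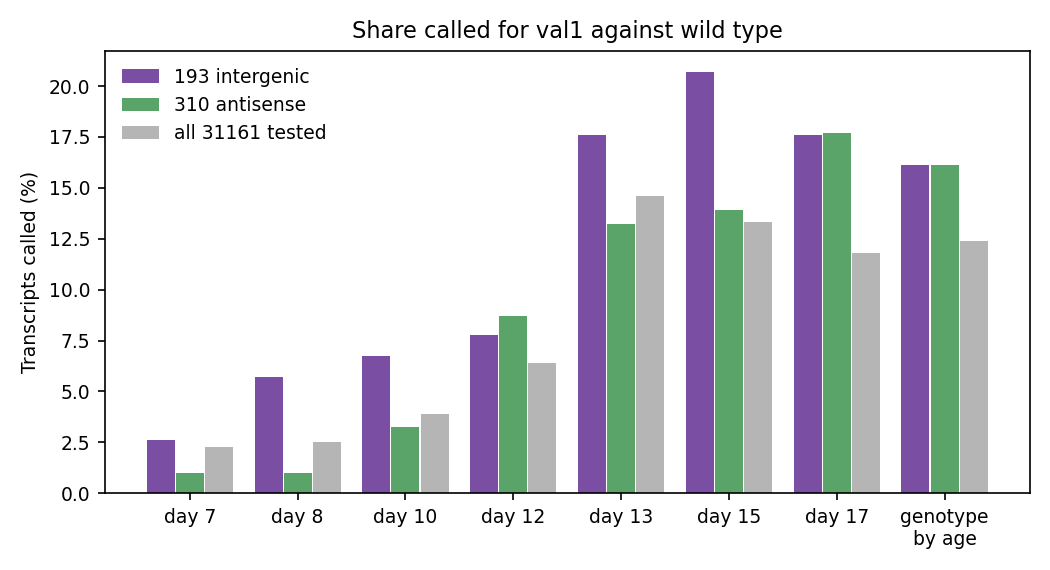
Share of transcripts called for val1 against wild type (y axis, percent) at each age and for the interaction of genotype and age (x axis), for 193 intergenic, 310 antisense and all 31161 tested transcripts. The share of intergenic transcripts runs from 2.59% at day 7 to 20.7% at day 15, and the share of all transcripts from 2.27 to 14.6%.

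A genotype difference that changed with age was called for 31 of the 193 (16.1%), against 12.4% of all transcripts. This count was the least stable: it was 20 without scaling between libraries and 8 with limma-voom on recovered reads. After UnknownGene_156 and UnknownGene_146, the smallest p belonged to UnknownGene_11, UnknownGene_12 and UnknownGene_247. UnknownGene_11 and UnknownGene_12 (505 and 508 bases) are forms of one locus on the plus strand of chromosome 1 between AT1G54955 and NP2, a mitogen-activated protein kinase kinase kinase.

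UnknownGene_12 (TCONS_00004694) was listed at 0 in every library of days 7, 8 and 10. At day 13 wild type held 0.625, 4.06 and 1.03 scaled FPKM and val1 0.0280, 0.0493 and 0. At day 15 wild type held 64.95, 54.5 and 67.5 and val1 18.7, 14.1 and 16.2. At day 17 it held 21.9 and 24.5 in wild type and 20.1, 18.2 and 37.1 in val1. The groups did not overlap at days 13 and 15 and overlapped at day 17. The difference was -1.92 ± 0.26 at day 13 and -1.90 ± 0.26 at day 15 (adjusted p = 1.84e-06 and 2.69e-06, limma), and the interaction had an adjusted p of 3.42e-05. In the second quantification neither the interaction (adjusted p = 0.266, limma) nor the average (-0.43, adjusted p = 0.188, limma) was called. The main transcript of NP2 differed by -0.06 ± 0.08 on average (adjusted p = 0.646, limma).

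UnknownGene_247 (TCONS_00049084, 808 bases) lies on the minus strand of chromosome 5 between AT5G15520 and EMB2773. It was rare throughout, and the genotypes differed late. At day 17 wild type held 1.89 and 1.65 scaled FPKM and val1 0.285, 0.333 and 0.0555, without overlap. The interaction had an adjusted p of 3.18e-05 (limma). Its wild-type level rose from day 12 to day 17 by 1.77 ± 0.21 (adjusted p = 3.63e-09, limma), and the rise in val1 was 0.26 ± 0.18 (adjusted p = 0.207, limma). UnknownGene_247 passed the filter of 1 FPKM through the wild-type libraries of day 17 alone, and its p-values take no account of that.

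Changes over age were more frequent than changes between genotypes. In wild type, 56 of the 193 were higher at day 12 than at day 7 and 44 were lower, 29.0 and 22.8%, against 34.5 and 37.4% of all transcripts. In val1 the counts were 57 and 45, against 34.4 and 36.5% of all transcripts. From day 12 to day 17, 67 were higher and 59 lower in wild type (all transcripts 32.9 and 38.1%), and 64 were higher and 64 lower in val1 (all transcripts 33.7 and 39.1%). The wild-type split of this interval rests on the filter, with 111 higher and 64 lower among all 289, and 32 higher and 42 lower with a minimum of 2 FPKM in 3 libraries. The split of the first interval rests on the scaling. Without it, the median of all transcripts moved by -0.92 in wild type and -0.85 in val1, and the intergenic counts became 34 higher and 80 lower in wild type and 34 and 71 in val1.

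From day 7 to day 12, 83 transcripts (43.0%) were called the same way in both genotypes (44 higher, 39 lower), against 64.5% of all transcripts, 16 in wild type alone and 18 in val1 alone. From day 12 to day 17, 112 (58.0%) were called the same way in both, against 62.1% of all transcripts, 14 in wild type alone and 16 in val1 alone. The 1 transcript called in opposite directions was UnknownGene_156 from day 7 to day 12, at -0.90 ± 0.18 in wild type and 1.21 ± 0.18 in val1 (adjusted p = 3.10e-05 and 3.09e-07, limma). A transcript called in 1 genotype alone is not shown to differ between them. By group mean, 47 of the 193 were highest at day 7 and 59 at day 17 in wild type, and 46 and 60 in val1.

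**Figure D5:**
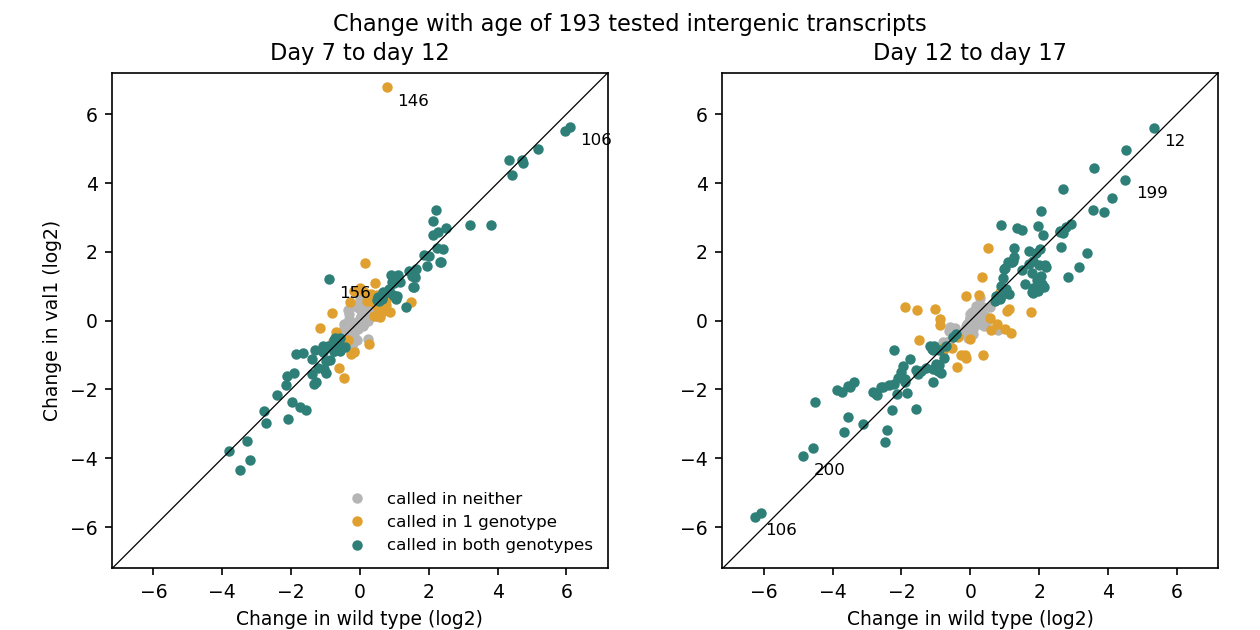
Change with age in val1 (y axes, log2) against that in wild type (x axes, log2) for 193 intergenic transcripts, from day 7 to day 12 (left) and from day 12 to day 17 (right), 1 point each, with the line of equal change and numbers from the UnknownGene names. Most green points, called in both genotypes, lie near the line. UnknownGene_156 (green) and UnknownGene_146 stand off it on the left, the latter at 6.78 in val1 and 0.79 in wild type.

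The strongest transient pattern was that of UnknownGene_106 and UnknownGene_107 (1147 and 1315 bases), forms of one locus on the minus strand of chromosome 2 between AT2G23210 and AtMT4b, a seed metallothionein. UnknownGene_106 (TCONS_00020254) held 0.205, 0 and 0.0407 scaled FPKM in wild type at day 7 and 31.95, 42.3 and 44.8 at day 12. In val1 it held 0.751, 0.0968 and 0.195 at day 7 and 44.2, 39.5 and 35.4 at day 12. At day 17 it was at 0 and 0.0453 in wild type and at 0.314, 0.0563 and 0.522 in val1. The change from day 7 to day 12 was 6.11 ± 0.53 in wild type and 5.64 ± 0.53 in val1, and from day 12 to day 17 it was -6.25 ± 0.59 and -5.70 ± 0.53 (adjusted p at most 3.92e-11, limma). The genotypes parted between: at day 15 wild type held 0.366, 0.0941 and 0.823 and val1 16.5, 2.42 and 23.1. That difference was 3.58 ± 0.53 (adjusted p = 7.75e-06, limma), the average was 0.95 ± 0.20, and the interaction was called (adjusted p = 0.00430, limma).

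AtMT4b, next to the pair, correlated with UnknownGene_106 at r = -0.11 (Spearman 0.03) over the 14 group means, and its main transcript differed between genotypes by -0.18 ± 0.19 (adjusted p = 0.524, limma). On the opposite strand of the span lie AT2G23200, AT2G23230 and CYP81D6, a cytochrome P450, looked up after the values had been seen. The main transcript of CYP81D6 was higher in val1 by 1.94 ± 0.09 on average (adjusted p = 1.60e-18, limma). CYP81D6 peaked earlier, at day 10, with 28.2 to 31.4 scaled FPKM in val1 and 0.465 to 0.756 in wild type. AT2G23230 was more abundant, with means of 32.09 in wild type and 46.85 in val1. Its main transcript was higher by 0.44 ± 0.16 (adjusted p = 0.0385, limma), and that of AT2G23200 differed by 0.12 ± 0.05 (adjusted p = 0.0591, limma). Here too, reads of overlapping transcripts on opposite strands cannot be told apart.

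UnknownGene_143 (897 bases) lies before the floral MADS-box gene SEP2 on the minus strand of chromosome 3. It rose from 0.0120, 0.0121 and 0.0174 scaled FPKM at day 7 to 19.2, 14.5 and 20.9 at day 12 in wild type, a change of 5.17 ± 0.35 (adjusted p = 1.60e-14, limma). At day 17 it held 0.144 and 2.01 in wild type and 6.15, 1.76 and 6.54 in val1. Summed over its transcripts, SEP2 was at a mean of 0.103 in wild type and 0.382 in val1, far below UnknownGene_143 per length. The main SEP2 transcript was higher in val1 by 0.49 ± 0.09 on average (adjusted p = 0.000101, limma).

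A further group was present early and gone later. UnknownGene_82 (TCONS_00014076, 731 bases), after TOM3 on chromosome 2, held 8.97, 7.32 and 9.47 scaled FPKM in wild type at day 7 and 0.0631, 0.336 and 0.0617 at day 12, and was listed at 0 in every wild-type library from day 13 on. The fall was -3.82 ± 0.19 in wild type and -3.78 ± 0.19 in val1 (adjusted p = 2.82e-18 and 5.49e-18, limma). UnknownGene_37, before C/VIF1, an inhibitor of invertase, fell by a log2 change of -3.48 and -4.33 and was listed at 0 in all libraries of both genotypes from day 10. At day 8 it held 0.107, 0 and 0.914 in wild type and 3.10, 3.52 and 1.10 in val1. UnknownGene_113, before SAP18, and UnknownGene_26, before ZIP10, fell between these ages in both genotypes as well, by log2 changes of -3.18 to -4.05. Wild-type replicate 2 of day 7 stood low for UnknownGene_26 (0.731 against 6.22 and 10.8) and UnknownGene_37 (1.75 against 7.62 and 9.08). The transcripts of this group reached the filter of 1 FPKM in early libraries, where they were high, UnknownGene_37 in those of days 7 and 8 alone. The p-values of the falls take no account of that.

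Late transcripts included UnknownGene_12, described above, UnknownGene_199 and UnknownGene_181. UnknownGene_12 rose from day 12 to day 17 by 5.33 ± 0.29 in wild type and 5.61 ± 0.26 in val1 (adjusted p = 2.53e-16 and 3.30e-18, limma). UnknownGene_199 (TCONS_00039454) held 0.592, 0.2996 and 0.560 scaled FPKM at day 12 and 19.8 and 23.8 at day 17 in wild type, a rise of 4.51 ± 0.25 (adjusted p = 3.50e-16, limma). In the second quantification the same difference was -1.07 and was not called. UnknownGene_181 (338 bases, chromosome 4) rose by 3.61 ± 0.24 in wild type and 4.43 ± 0.22 in val1. Over the 14 group means it correlated with the gene after it, AT4G07408 (r = 0.996, Spearman 0.97), and with the gene before it, AT4G07390 (r = 0.96, Spearman 0.71).

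Of the 10 most abundant intergenic transcripts, 5 were called on average between genotypes and 5 were not. UnknownGene_153 (TCONS_00031653, 835 bases), on the minus strand of chromosome 3 after RABA2c, a small GTPase of membrane traffic, had the highest mean, 29.0 FPKM. It held 42.3, 32.3 and 24.3 scaled FPKM in wild type at day 7 and 10.5 and 14.2 at day 17, and 29.1, 32.1 and 26.3 and then 16.1, 14.8 and 16.1 in val1. Its average difference was 0.13 ± 0.07 (adjusted p = 0.207, limma), and it correlated with RABA2c at r = 0.94 (Spearman 0.71) over the 14 group means. UnknownGene_150, with a mean of 17.3 FPKM, differed by 0.05 ± 0.09 (adjusted p = 0.721, limma). UnknownGene_138 (13.1 FPKM) was lower by a log2 difference of -0.20 ± 0.07 (adjusted p = 0.0310, limma), a call lost in 10 of the 41 fits with a library left out, where the adjusted p was at most 0.0950. It followed the gene before it, AT3G26380 (r = 0.95, Spearman 0.94).

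UnknownGene_134 (TCONS_00023015, 820 bases; mean 14.1 FPKM) lies between AT3G03610 and BGLU25, a beta-glucosidase. It held 1.61, 1.23 and 2.16 scaled FPKM in wild type at day 15 and 6.53, 3.45 and 5.30 in val1, without overlap, and was higher in val1 by 0.69 ± 0.08 on average (adjusted p = 7.31e-08, limma). UnknownGene_200 and UnknownGene_201 (13.7 and 11.2 FPKM) are forms of one locus on chromosome 4 between SARK and CNGC9, a cation channel. UnknownGene_200 fell from 10.7, 24.3 and 12.8 at day 12 to 0 and 0.0611 at day 17 in wild type, by a log2 change of -4.86 ± 0.44 (adjusted p = 1.61e-11, limma). UnknownGene_288 (237 bases, 10.7 FPKM), without strand, was uneven between replicates, with 8.28, 16.6 and 74.4 in wild type at day 12, and its average difference of 0.63 ± 0.32 was not called (adjusted p = 0.149, limma).

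Across all 143 tested transcripts on a strand, the nearest listed genes on each side were compared in direction. The 58 called on average had 69 flanking genes with a tested transcript. Of these, 23 (33.3%) were called in the same direction as the intergenic transcript and 8 (11.6%) in the opposite one. The 85 not called had 102 such flanking genes, with 19 (18.6%) called in the direction of the small difference of the intergenic transcript and 18 (17.6%) in the opposite one. Forms of one locus count the same flanking genes again, and no test was made on these shares. At the level of single loci the neighbours differed widely. UnknownGene_181 correlated with the genes on both sides over the group means, while the flanking genes of UnknownGene_85 and UnknownGene_40 were at or near 0.

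The authors' deposited table of genotype comparisons holds 63 of the 289 intergenic transcripts, and 7826 of all 53988 assembled transcripts. Of the 63, 50 passed the filter used here, and 46 of the 50 were called on average. That table lists only transcripts past the authors' threshold in the same data, so this overlap is no independent support. The share called among all its entries is not given here. In the authors' deposited table UnknownGene_7 had log2 differences of -5.73 to -4.004 over the 7 ages. UnknownGene_146 had 1.83 at day 7 and 9.99 at day 17 in the authors' deposited table. The scale of those values differs from the one used here, where 0.5 was added to every value.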

How the data were processed

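The starting point was the expression tables the authors deposited for RNA-seq of whole embryos. Per the labels, dissection of both genotypes ran side by side in the cold, with washes against endosperm, and the reads were paired, of 75 bases. The submitters' processing notes name TopHat2, StringTie and TAIR10 without versions. The authors deposited FPKM per assembled transcript, with transcript length in bases and a class code. The other sheet they deposited, which its name presents as counts, held non-whole values that were treated as a signal of another quantification and used as an alternative. A table of comparisons, also deposited, lists the authors' log2 differences per age and an adjusted p-value; only transcripts past their threshold are in it.

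Of 41 value columns, 34 were matched to numbered libraries, and 7 to their group alone (4 replacement columns of days 8 and 12, and 3 of val1 day 17). Depth was estimated from the steps of low FPKM values and is approximate. Scaling between libraries used trimmed log ratios over reference-class transcripts (30% and 5% trimmed), with factors of 0.537 to 2.07. log2(scaled FPKM + 0.5) was fitted over 31161 transcripts that reached 1 FPKM in 2 libraries or more, with limma 3.58.1 in R 4.3.3, a trended prior and a mean per group (27 residual degrees of freedom). A simulation of the average contrast on 31161 transcripts, 200 of them changed, recovered 48 of 50 changes of 0.5 on the log2 scale and 50 of 50 of 1, with 11 unchanged transcripts called. Tables were made with pandas 2.3.3 and numpy 2.4.6 and figures with matplotlib 3.10.9.

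Named transcripts are the 10 with the highest mean FPKM, the 10 higher and 10 lower with the largest average difference among those called, the 5 with the smallest p for the interaction, and the 3 higher and 3 lower of each interval of development. The members and lists were chosen with earlier results of these data known. Flanking genes come from locus order and the RefSeq annotation of TAIR10.1, used for names and neighbours alone. A gene's level is the sum over its transcripts, and its test is that of its most abundant transcript. Alternatives were other scalings, pseudocounts and filters, limma-voom on recovered reads, a replicate block, each library left out, and the second quantification.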

Additional observations from a re-analysis of the deposited data

Results flagged for a closer look

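Each transcript below was flagged because its difference between val1 and wild type differed between ages by the interaction test of limma, with p adjusted over all 31161 transcripts. UnknownGene_156 had an adjusted p of 8.40e-10 and passed in all 53 alternatives. UnknownGene_11 had 1.26e-06 and passed in all 53, and UnknownGene_12, a form of the same locus, had 3.42e-05 and passed in 52, all but the second quantification (0.266). For UnknownGene_146 it was 1.77e-06, and for UnknownGene_247 it was 3.18e-05. With limma-voom on recovered reads these gave 0.182 and 0.0707 and were not called.

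The 3 forms of the chromosome 4 locus, UnknownGene_191, UnknownGene_188 and UnknownGene_189, had adjusted p of 0.000112, 0.000373 and 0.000385. UnknownGene_106 and UnknownGene_107, also of one locus, had 0.00430 and 0.00441. All 5 missed the threshold with limma-voom, at 0.0867 to 0.786. UnknownGene_37 had 0.0272 and passed in 45 of 53 alternatives, and it missed the threshold without day 17 (0.0549).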

How the results depend on the processing

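Of 367 recomputed counts for the average, 1 age or more, the interaction and the 4 intervals, 350 were within 1.5 times the reported one, as were 346 of 368 counts for single ages. With a minimum of 2 FPKM in 3 libraries, which tests 102 intergenic transcripts, the counts were 46 for the genotype average, 53 for 1 age or more, 19 for the interaction, 61 and 74 for the intervals of wild type and 60 and 77 for those of val1. In the second quantification they were 29 for the average, 45 for 1 age or more, 17 for the interaction, and 78 and 81 from day 12 to day 17. The interaction count also moved, from 31 to 20 without scaling, 8 with limma-voom, 19 with the replicate block, 16 in the numbered libraries without the block and 18 without day 17; the last 2 settings were chosen after seeing the data, as was leaving out the shallowest library, and the cause was not tested. No block value exists for val1 from day 12 to day 17, whose day 17 libraries carry no number. The average count was 58 with the replicate block and 56 in the same libraries without it. Same-numbered libraries correlated at -0.00968 to 0.594 in their deviations over 16 pairs, with a median of 0.443 and 15 over 0.1, and 30 of 32 libraries correlated best with their own number in the other genotype. This is a hint from the data of pairing within an age, though 1 pair was below 0.1. The block gave each number 1 effect shared by all ages, so it did not model such pairing. The counts with and without the block therefore do not show what pairing within an age would change. As the labels do not say what a number marks, the fit without the block was kept, and its p-values treat the libraries as unpaired. With each of 41 libraries left out, counts were 66 to 79 for the average, 69 to 89 for 1 age or more, 26 to 42 for the interaction, 88 to 101 and 110 to 129 in wild type and 87 to 107 and 116 to 130 in val1.

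Of 56 named values, 47 kept direction and call in every alternative run. The rise of UnknownGene_199 in wild type from day 12 to day 17 turned to -1.07 (adjusted p = 0.222, limma) in the second quantification. Depth is an estimate, and transcripts near 0 carry differences that the added 0.5 sets.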
